A study of Homo sapiens with 40 samples.

Results

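NFKB1, NFKB2, REL, RELA and RELB, the genes of the NF-kB subunits, and TRAF1, the gene of a TNF receptor-associated adaptor, were followed across 6 experiments in human lymphoma cells. The genes were those with a probe listed under 1 of these 6 symbols alone, and they took 24 of the 15246 probes and 6 of the 4604 named genes on the arrays. NFKB1 (Entrez gene 4790) had 3 probes, NFKB2 (4791) 7, REL (5966) 4, RELA (5970) 2, RELB (5971) 3 and TRAF1 (7185) 5, and 97 of their 960 probe values were blank. The lines OCI-Ly3 and OCI-Ly10 come from diffuse large B cell lymphomas of the activated B cell-like class, whose cells depend on constant NF-kB activity. RNA was compared on 40 spotted 2-colour arrays, with treated cells in the Cy5 channel and control cells of the same line in the Cy3 channel, and without a dye swap. A value is therefore a log2 ratio of treated over control cells, not a level (log base 2 was assumed, since the base is not stated).

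Doxycycline at 20 ng/ml switched on an IkB super-repressor, an IkB alpha that escapes degradation and so holds NF-kB back, in OCI-Ly3 (1 to 6 h, 9 arrays) and in OCI-Ly10 (1.5 to 24 h, 4 arrays), against uninduced cells. IL-10 at 50 ng/ml was added to OCI-Ly3 (1 to 96 h, 10 arrays) and IL-6 at 50 ng/ml to OCI-Ly10 (0.5 to 24 h, 8 arrays), against untreated cells. OCI-Ly10 also received STAT3 siRNA at 4 uM, against transfection with no siRNA (8 to 48 h, 5 arrays), or JAK inhibitor I at 5 uM, against untreated cells (3 and 6 h, 4 arrays). No array measured doxycycline without the super-repressor or a siRNA without a target, so those effects cannot be told apart from the intended ones. Each line stands for 1 tumour. Ratios give no level, so the B cell identity of the lines could not be checked, although 6 of 7 B cell marker genes were on the arrays. In bulk RNA, less RNA of a gene per cell and fewer cells with that RNA cannot be told apart.

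NF-kB proteins act as dimers of subunits that share a Rel homology domain. In resting cells IkB proteins hold the dimers in the cytoplasm, and the IKK kinase complex, when switched on by antigen, Toll-like or TNF-family receptors, marks IkB for destruction and frees them. RELA, REL and RELB carry domains that activate transcription, while NFKB1 and NFKB2 encode precursors that are cut to DNA-binding partners without one. RELA and REL with the NFKB1 product form the classical pathway, and RELB with the NFKB2 product the alternative pathway of receptors such as CD40 and BAFF-R. Several of these genes, with TRAF1 and the IkB genes, are known NF-kB targets, so that the pathway feeds back on its own parts. IL-6 and IL-10 signal through JAK kinases and STAT3.

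The promoters are shown because several of these genes are known NF-kB targets, and the IkB super-repressor holds NF-kB back. RefSeq windows (GRCh38.p14, 250 bases before to 50 after an annotated start) were at hand for 5 of the 6 genes, 11 windows in all, with none used for RELB. Each is on the gene's own strand, 5′ to 3′, and capitals mark matches to the NF-kB consensus decamer, searched on both strands. The windows of NFKB1 (chr4:102501109-102501408, plus strand), NFKB2 (chr10:102394328-102394627, plus strand), REL (chr2:60881324-60881623, plus strand) and TRAF1 (chr9:120929122-120929421, minus strand) read as follows.
NFKB1: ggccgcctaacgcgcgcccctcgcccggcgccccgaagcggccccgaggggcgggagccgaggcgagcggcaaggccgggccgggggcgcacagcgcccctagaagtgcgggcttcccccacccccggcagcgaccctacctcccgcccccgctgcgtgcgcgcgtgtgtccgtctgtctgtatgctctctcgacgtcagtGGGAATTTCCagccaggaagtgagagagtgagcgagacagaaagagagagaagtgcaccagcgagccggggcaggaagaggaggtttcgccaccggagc
NFKB2: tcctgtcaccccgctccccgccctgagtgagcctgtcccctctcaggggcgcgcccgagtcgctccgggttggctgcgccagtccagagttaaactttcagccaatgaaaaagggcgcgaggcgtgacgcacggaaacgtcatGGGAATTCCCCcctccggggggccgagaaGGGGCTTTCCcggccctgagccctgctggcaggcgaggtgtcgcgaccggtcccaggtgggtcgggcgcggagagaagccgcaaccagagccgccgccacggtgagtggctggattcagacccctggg
REL: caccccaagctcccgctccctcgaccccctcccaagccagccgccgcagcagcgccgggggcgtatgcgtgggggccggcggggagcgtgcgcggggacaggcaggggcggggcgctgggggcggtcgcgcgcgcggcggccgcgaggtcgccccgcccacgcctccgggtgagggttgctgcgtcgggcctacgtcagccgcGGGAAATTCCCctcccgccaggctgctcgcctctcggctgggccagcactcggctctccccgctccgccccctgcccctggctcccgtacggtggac
TRAF1: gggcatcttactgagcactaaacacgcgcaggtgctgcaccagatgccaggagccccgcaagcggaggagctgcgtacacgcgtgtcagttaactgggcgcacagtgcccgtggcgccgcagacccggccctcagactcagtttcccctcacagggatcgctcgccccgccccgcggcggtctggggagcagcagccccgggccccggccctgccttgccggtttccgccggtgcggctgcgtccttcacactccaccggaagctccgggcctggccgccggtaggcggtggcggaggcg
The consensus was found in 3 of the 5 genes, NFKB1, NFKB2 and REL. NFKB1 had 1 match, GGGAATTTCC, from base -49 to base -40 relative to the start. REL had 2 matches that overlap by all but 1 base, the first of them GGGAAATTCC from base -47 to base -38. NFKB2 had 3 matches in the window shown, of which GGGAATTCCC (from -107) and GGAATTCCCC (from -106) overlap and GGGGCTTTCC (from -78) stands apart. Another start of NFKB2 (chr10:102395455-102395754, plus strand) had 2 more matches, GGGGCTTCCC (from -176) and GGGACTTTCC (from -21). Of all 35116 promoter windows in that RefSeq set 11.27% held the consensus, as did at least 1 window of 13.25% of 27305 genes. The 2 windows of RELA and the 3 of TRAF1 held none, which says only that these letters are not in those windows. The STAT motif, TTC and GAA with 3 bases between, which reads the same on both strands, occurred in 7.66% of all windows and, among these genes, once, in a window of RELA (chr11:65663808-65664107, minus strand).

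With the IkB super-repressor switched on in OCI-Ly3, the RNA of TRAF1, RELB and NFKB2 fell. Whether these genes depend on NF-kB was not tested, since no array measured doxycycline without the super-repressor. TRAF1, which links TNF-family receptors to other TRAF and IAP proteins, fell by 0.43 ± 0.05 on the log2 scale over 2 to 6 h. RELB, the activating subunit of the alternative pathway, fell by 0.38 ± 0.07, and NFKB2, the precursor of its partner, fell by 0.29 ± 0.05. These are means over the time window ± SE from limma, n = 7 arrays. Thus 3 of the 6 genes fell and 0 rose, where 4.87% of the 4390 genes tested fell and 9.16% rose (14% called in either direction, at adjusted p under 0.05). The median of the 6 window means was -0.33, against -0.03 for all genes tested.

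TRAF1 had a log2 ratio of 0.01 at 1 h and -0.05 at 1.5 h, of -0.22 and -0.12 on the 2 arrays at 2 h, of -0.43 at 3 h, of -0.38 and -0.46 at 4 h, and of -0.72 and -0.66 at 6 h. All 7 arrays from 2 h on lay below 0, and both arrays at 6 h lay below every earlier one. The window mean had a limma adjusted p of 3.44e-05, and by itself the 4 h mean (-0.42 ± 0.09, adjusted p = 0.0303, with 1.01% of genes called at that time, a call lost with arrays scaled to equal spread) and the 6 h mean (-0.69 ± 0.09, adjusted p = 0.000133, with 2.09% called) passed.

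RELB had ratios of 0.01 (1 h), 0.02 (1.5 h), -0.07 and 0.09 (2 h), -0.21 (3 h), -0.63 and -0.41 (4 h), and -0.53 and -1.08 (6 h). The first 4 arrays lay near 0 and the last 5 below them all. Limma gave an adjusted p of 0.00295 for the window (6 of 7 arrays below 0) and of 0.0013 for the 6 h mean (-0.80 ± 0.13), while the 4 h mean of -0.52 ± 0.13 had an adjusted p of 0.06.

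NFKB2 had ratios of 0.04 at 1 h, -0.13 at 1.5 h, -0.14 and -0.30 at 2 h, -0.18 at 3 h, -0.21 and -0.27 at 4 h, and -0.65 and -0.40 at 6 h. Only the array at 1 h lay above 0, and the 2 arrays at 6 h were the lowest. Over the window limma gave an adjusted p of 0.0024 (7 of 7 arrays below 0), and the 6 h mean of -0.53 ± 0.10 had an adjusted p of 0.00435.

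**Figure D1:**
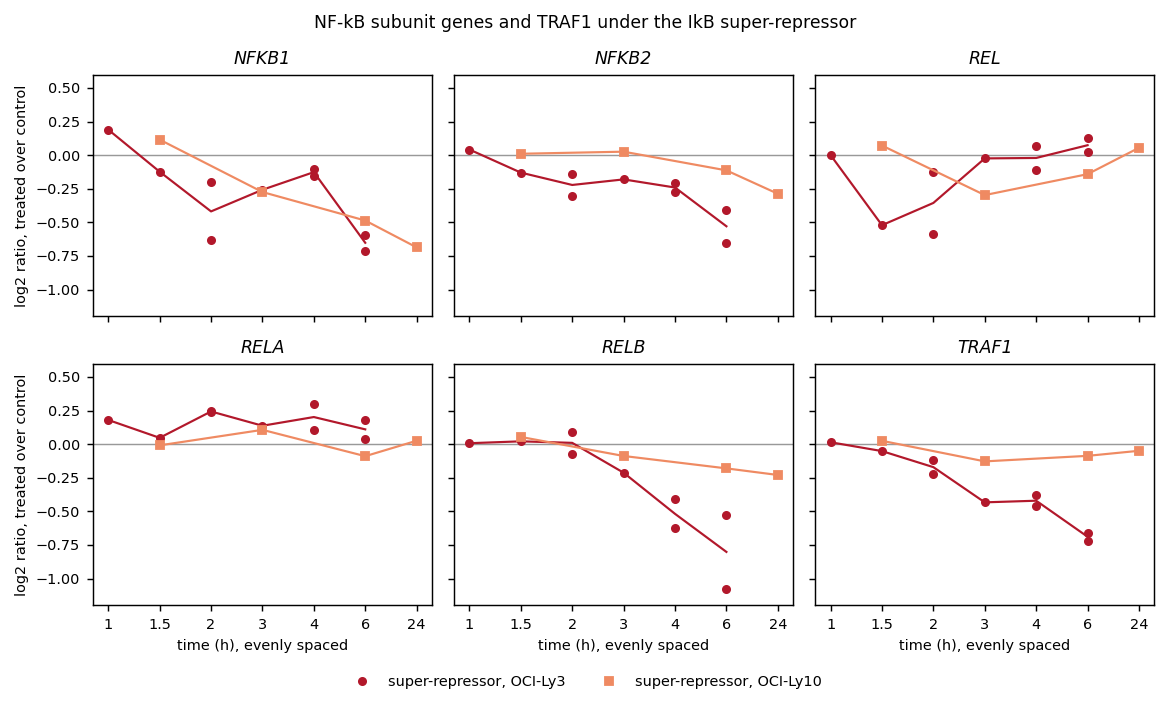
Log2 ratios of induced over uninduced cells (vertical axis) by time in h (horizontal axis, evenly spaced) for the 6 genes under the IkB super-repressor. Points are single arrays, lines join the means of each time, circles are OCI-Ly3 and squares OCI-Ly10; TRAF1 in OCI-Ly3 stood at -0.72 and -0.66 at 6 h and at -0.09 in OCI-Ly10.

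The later arrays of OCI-Ly3 differed from the earlier ones for 2 of the 6 genes. The mean at 4 and 6 h minus the mean at 1 to 2 h was -0.67 ± 0.14 for RELB (limma adjusted p = 0.0211) and -0.49 ± 0.09 for TRAF1 (adjusted p = 0.0142), in a contrast that called 0.543% of 4422 genes. With arrays scaled to equal spread, RELB had -0.65 and an adjusted p of 0.0619, so its call was lost. NFKB2 had a difference of -0.28 ± 0.10 (adjusted p = 0.581) and did not pass.

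NFKB1, the precursor gene of the classical pathway, lay below 0 on 7 of 7 arrays of the window without passing the threshold. Its ratios were 0.19 at 1 h, -0.12 at 1.5 h, -0.63 and -0.20 at 2 h, -0.26 at 3 h, -0.15 and -0.10 at 4 h, and -0.71 and -0.59 at 6 h. The 2 replicates of 2 h lay far apart, and the window mean was -0.36 ± 0.12 (limma adjusted p = 0.0549). Over all probes with a value on both, the 2 arrays of 2 h correlated at only -0.016, against 0.676 at 4 h and 0.535 at 6 h. NFKB1 passed with the probes' median in place of their mean (adjusted p = 0.00646), with arrays scaled to equal spread (0.0359) and with the experiment fitted alone (0.0322). It did not pass with array runs as a random block (limma adjusted p = 0.218). Nor did it pass against the mean of the other 5 experiments (-0.12 ± 0.14, limma adjusted p = 0.576).

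REL and RELA, subunits that activate transcription in the classical pathway, did not pass either. REL had ratios of 0.00 (1 h), -0.52 (1.5 h), -0.58 and -0.13 (2 h), -0.02 (3 h), -0.11 and 0.07 (4 h), and 0.02 and 0.13 (6 h). Its lowest arrays were thus early ones, the window mean was -0.08 ± 0.09 (limma adjusted p = 0.538), and without the 2 h arrays it was 0.0098. RELA ranged from 0.04 to 0.30 on the 9 arrays and never lay below 0. Its window mean of 0.17 ± 0.06 (95% interval 0.05 to 0.30) had a limma adjusted p of 0.0562.

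In OCI-Ly10 the same block called 0 of the 6 genes over 3 to 24 h, where limma called 0.532% of 4514 genes (293 genes, and NFKB1 among the 6, had an unadjusted p under 0.05). NFKB1 stood at 0.12, -0.27, -0.49 and -0.69 at 1.5, 3, 6 and 24 h, each later array below the one before. Its window mean was -0.48 ± 0.18 on 3 of 3 arrays (limma adjusted p = 0.513). NFKB2 was at 0.01, 0.03, -0.11 and -0.29, and RELB at 0.05, -0.09, -0.18 and -0.23 at the same times. Both were lowest at 24 h, with window means of -0.12 ± 0.08 and -0.17 ± 0.11. TRAF1 was at 0.02, -0.13, -0.09 and -0.05, a window mean of -0.09 ± 0.07 (95% interval -0.24 to 0.07). REL ranged from -0.30 to 0.07 and RELA from -0.09 to 0.11 over the 4 arrays. The experiment had 1 array per time and 3 in the window, which limits what it could show. With arrays scaled to equal spread NFKB1 passed, with a mean of -0.68 and an adjusted p of 0.0166, where 238 genes were called in place of 24. It did not pass with array runs as a random block (limma adjusted p = 0.999). Nor did it pass against the mean of the other 5 experiments (-0.26 ± 0.19, limma adjusted p = 0.999).

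At the shared times of 1.5, 3 and 6 h the lines were compared directly, and limma called 0% of 4384 genes (108 had an unadjusted p under 0.05). TRAF1 differed by -0.33 ± 0.10 (OCI-Ly3 minus OCI-Ly10, 95% interval -0.54 to -0.12, unadjusted p = 0.00434), RELB by -0.26 ± 0.15 (-0.56 to 0.05) and NFKB2 by -0.25 ± 0.11 (-0.48 to -0.03), each at an adjusted p of 0.994. A difference between the lines was therefore not shown for any of the 6 genes, and the intervals do not show that the lines acted alike.

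The other parts of the pathway give the setting of these changes. Of 38 tested pathway genes that are not subunits or TRAF1, 6 fell and 1 rose in OCI-Ly3 (median -0.07, against -0.03 for all genes), and 3 fell and 1 rose in OCI-Ly10 (median -0.03, against -0.01). Among the inhibitors NFKBIA (-1.61 ± 0.10), the gene of IkB alpha, NFKBIE (-0.73 ± 0.09) and the atypical IkB gene NFKBID (-0.37 ± 0.08) fell in OCI-Ly3, and NFKBIA (-1.03 ± 0.15) and NFKBIE (-0.66 ± 0.13) in OCI-Ly10. The super-repressor is itself an IkB alpha, and its own RNA may add to the NFKBIA signal. TNFAIP3, the gene of the feedback enzyme A20, fell by 1.19 ± 0.10 in OCI-Ly3 and by 0.92 ± 0.14 in OCI-Ly10. The kinase gene MAP3K8 (-0.69 ± 0.07) and the receptor gene LTBR (-0.20 ± 0.06) fell in OCI-Ly3, and TNFRSF17, the gene of the BAFF and APRIL receptor BCMA, rose in OCI-Ly3 (0.63 ± 0.07) and OCI-Ly10 (0.51 ± 0.11). None of the 6 tested other TRAF and IAP adaptors passed in either line. Of the markers of other cell types 0 of 9 T and NK cell genes and 0 of 5 myeloid genes passed in either line, and of 6 B cell markers PAX5 fell (-0.22) and BLNK rose (0.26) in OCI-Ly3.

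With IL-10 in OCI-Ly3 RELB rose and REL and NFKB1 fell, although NFKB1 was not shown to differ from its mean in the other 5 experiments. RELB rose by 0.38 ± 0.06 over 1 to 96 h, REL fell by 0.34 ± 0.07 and NFKB1 fell by 0.40 ± 0.10 (log2 means ± SE, n = 10 arrays). Thus 1 of the 6 genes rose and 2 fell, in an experiment in which limma called 35.3% of 4383 genes (16.1% higher, 19.2% lower). With 6 genes, a count of 3 is not far from that background, and their median of 0.02 lay close to the median of -0.02 over all genes tested.

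RELB had ratios of 0.23 and 0.01 at 1 h, 0.63 and 0.18 at 3 h, 0.41 and 0.16 at 6 h, 0.38 and 0.32 at 24 h, 0.36 at 48 h and 0.79 at 96 h. It lay above 0 on 10 of 10 arrays, with the highest at 96 h. Limma gave the window an adjusted p of 9.66e-05.

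REL, the subunit of the classical pathway that mature B cells use in proliferation, had ratios of 0.02 and -0.06 (1 h), 0.43 and -0.35 (3 h), -0.43 and -0.69 (6 h), -0.23 and -0.45 (24 h), -0.47 (48 h) and -0.71 (96 h). From 6 h on all 6 arrays lay below 0, while the replicates of 3 h lay on opposite sides of it. The window had a limma adjusted p of 0.00147 (8 of 10 arrays below 0). The 6 h mean of -0.56 ± 0.16 passed by itself (adjusted p = 0.0369, with 6.79% of genes called at 6 h), a call lost with arrays scaled to equal spread and with the probes' median.

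NFKB1 had ratios of -0.34 and -0.16 (1 h), 0.26 and -0.17 (3 h), -0.38 and -0.07 (6 h), -0.20 and -0.61 (24 h), -0.51 (48 h) and -1.03 (96 h). It lay below 0 on 9 of 10 arrays and was lowest at 96 h. Limma gave an adjusted p of 0.00619 for the window. Without the 96 h array the mean was -0.27 and the adjusted p 0.0718, so the call of NFKB1 rested on the 96 h array. Against the mean of the other 5 experiments NFKB1 did not pass (-0.16 ± 0.12, limma adjusted p = 0.414). Over all experiments it lay below 0 on 34 of 40 arrays.

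The other 3 genes did not pass with IL-10. NFKB2 ranged from -0.04 to 0.21, with 8 of 10 arrays above 0 and a mean of 0.07 ± 0.05 (95% interval -0.03 to 0.17). TRAF1 ranged from -0.18 to 0.14, with a mean of -0.04 ± 0.04 (95% interval -0.13 to 0.06). RELA ranged from -0.23 to 0.41, with a mean of 0.11 ± 0.05 (limma adjusted p = 0.106), and its 2 probes moved in opposite directions. None of the 6 genes was called between late and early times (24 to 96 h minus 1 to 6 h), where 13.5% of 4383 genes were called. The differences were -0.51 ± 0.21 for NFKB1 (adjusted p = 0.123), -0.33 ± 0.15 for REL (adjusted p = 0.177) and 0.23 ± 0.12 for RELB (adjusted p = 0.281). With the probes' median, NFKB1 passed this contrast with -0.46 and an adjusted p of 0.0447.

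**Figure D2:**
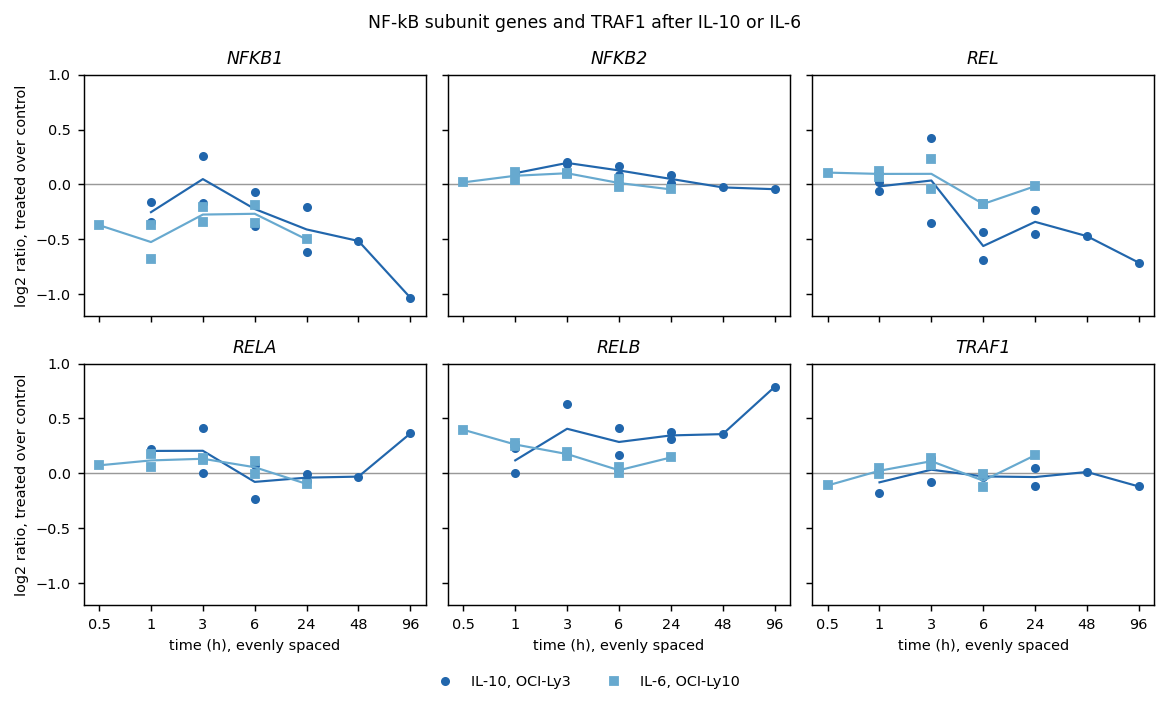
Log2 ratios of treated over untreated cells (vertical axis) by time in h (horizontal axis, evenly spaced) for the 6 genes with IL-10 in OCI-Ly3 (circles) or IL-6 in OCI-Ly10 (squares). Points are single arrays and lines join the means of each time; RELB lay above 0 on 10 of 10 arrays with IL-10, and REL and NFKB1 were lowest at 96 h (-0.71 and -1.03).

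Among the other pathway genes IL-10 raised 11 and lowered 8 of 38 tested (median -0.04, against -0.02 for all genes). BCL3, an atypical IkB protein that binds the processed NFKB1 and NFKB2 products in the nucleus, rose by 1.64 ± 0.06, and NFKBIA (0.36 ± 0.09) and TNFAIP3 (0.47 ± 0.08) rose with it. NFKBIE (-0.56 ± 0.07) and NFKBID (-0.47 ± 0.07) fell. Of the adaptors BIRC2, the gene of a ubiquitin ligase that binds TRAF proteins (0.94 ± 0.06), TANK (0.68 ± 0.06), TRAF3IP2 (0.17), MALT1 (0.23), BCL10 (0.21) and MYD88 (0.16) rose and TRAF3, a brake on the alternative pathway, fell by 0.35 ± 0.09. Of the genes of the IKK complex and upstream kinases IKBKG rose (0.34) and MAP3K8 (-0.61 ± 0.06), RIPK2 (-0.22) and IKBKE (-0.16) fell. The receptor genes TNFRSF13C, which encodes BAFF-R (-0.52 ± 0.15), and CD40 (-0.27 ± 0.06) fell, and TNFRSF8, which encodes CD30, rose (0.25). Markers of other cells were also called with IL-10, in both directions, in an experiment that called 35.3% of all genes tested. Of 9 T and NK cell markers CD3E (0.17) and CD4 (0.26) rose and KLRD1 (-0.18) fell, and of 5 myeloid markers CD14 (0.60) and CD68 (0.19) rose and FCGR3A (-0.28) fell. Of 6 B cell markers CD22 (0.20) rose and CD79A (-0.34) fell. Their part in the changes of the NF-kB genes was not tested.

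IL-6 in OCI-Ly10 called 0 of the 6 genes over 1 to 24 h, where limma called 4.54% of 3301 genes (704 genes, and NFKB1 among the 6, had an unadjusted p under 0.05). NFKB1 had ratios of -0.37 (0.5 h), -0.68 and -0.37 (1 h), -0.34 and -0.20 (3 h), -0.18 and -0.35 (6 h) and -0.50 (24 h). All 8 arrays lay below 0, and the window mean was -0.39 ± 0.12 (limma adjusted p = 0.0719). With the replicate number as a block, which pairs the arrays of this experiment, NFKB1 passed at an adjusted p of 0.0399, and 314 genes were called in place of 150. RELB had ratios of 0.40 (0.5 h), 0.25 and 0.28 (1 h), 0.16 and 0.19 (3 h), 0.06 and 0.00 (6 h) and 0.15 (24 h). No array lay below 0, the earliest was the highest, and the window mean was 0.15 ± 0.07 (adjusted p = 0.234). Over the 8 arrays NFKB2 ranged from -0.04 to 0.12, REL from -0.18 to 0.23, RELA from -0.10 to 0.18 and TRAF1 from -0.12 to 0.17. Their window means lay between 2e-04 (REL) and 0.06 (TRAF1), each within 1.5 SE of 0. Late and early times (3 to 24 h minus 0.5 and 1 h) differed for 0.467% of 3212 genes and for none of the 6. Of 30 other pathway genes BCL3 rose (0.79 ± 0.07) and NFKBID fell (-0.30 ± 0.08), and 0 markers of other cell types passed. The median of those 30 genes was -0.02, against -0.01 for all genes.

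IL-10 and IL-6 were compared at the shared times of 1, 3, 6 and 24 h, at the same dose but in different lines. Limma called 9.5% of 3644 genes and none of the 6. REL differed by -0.22 ± 0.12 (IL-10 minus IL-6, 95% interval -0.47 to 0.03), RELB by 0.14 ± 0.10 (-0.07 to 0.34) and NFKB1 by 0.18 ± 0.16 (-0.16 to 0.53), with adjusted p-values of 0.269, 0.437 and 0.547. The call of REL with IL-10 and its mean near 0 with IL-6 were thus not shown to differ at those times.

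STAT3 siRNA in OCI-Ly10 called 0 of the 6 genes over 24 and 48 h, where 3.31% of 4346 genes were called (903 genes, and 3 of the 6, had an unadjusted p under 0.05). REL had ratios of -0.34 (8 h), -0.11 and 0.08 (24 h) and 0.31 and 0.91 (48 h). Both arrays at 48 h lay above the earlier 3, with a mean of 0.61 ± 0.16 at 48 h (limma adjusted p = 0.051) and of 0.30 ± 0.11 over the window (adjusted p = 0.144). Without the higher 48 h array the window mean was 0.15. NFKB2 had ratios of 0.22 (8 h), 0.13 and 0.06 (24 h) and 0.13 and 0.44 (48 h), and RELA of 0.13, of 0.20 and 0.10, and of 0.19 and 0.21 at the same times. Both lay above 0 on all 5 arrays, with window means of 0.19 ± 0.07 (adjusted p = 0.139) and 0.18 ± 0.07 (adjusted p = 0.186). NFKB1 had ratios of -0.13 (8 h), -0.06 and -0.44 (24 h) and -0.25 and 0.81 (48 h). The array at 0.81 stood apart from the other 4, and on it the probe of NFKB1 that varied most read 2.70. RELB (-0.03 to 0.22) and TRAF1 (-0.12 to 0.09) had window means of 0.06 ± 0.09 and 3e-04 ± 0.06. None of 38 other pathway genes passed, and their median was -0.0052, against -0.01 for all genes.

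JAK inhibitor I in OCI-Ly10 called 0 of the 6 genes over 3 and 6 h, where 3.26% of 4480 genes were called (726 genes, and NFKB2 among the 6, had an unadjusted p under 0.05). NFKB2 had ratios of -0.05 and 0.01 (3 h) and of 0.62 and 0.23 (6 h). Both arrays at 6 h lay above both at 3 h, and the 6 h mean of 0.43 ± 0.10 passed by itself (limma adjusted p = 0.021, with 3.21% of genes called), while the window mean of 0.20 ± 0.07 did not (adjusted p = 0.127). Without the 6 h array at 0.62 the window mean was 0.11 (adjusted p = 0.495). NFKB1 had ratios of 0.10 and -0.26 (3 h) and 0.62 and -0.38 (6 h), so that its replicates lay on opposite sides of 0 at both times. On the array at 0.62 the most variable NFKB1 probe read 1.85. TRAF1 had ratios of -0.19 and -0.13 (3 h) and 0.08 and -0.19 (6 h), with a mean of -0.11 ± 0.06 (95% interval -0.24 to 0.03). REL ranged from -0.13 to 0.32, RELA from -0.25 to 0.08 and RELB from -0.28 to 0.19, with means of 0.07 ± 0.11, -0.03 ± 0.07 and -0.06 ± 0.09. Of 39 other pathway genes 0 rose and 3 fell (median -0.03, against 2e-04 for all genes): BCL3 (-0.76 ± 0.09), MYD88, the Toll-like receptor adaptor (-0.42 ± 0.09), and TBK1 (-0.32 ± 0.08). Of the B cell markers CD79B rose (0.68 ± 0.13).

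At 3 and 6 h the inhibitor and IL-6 could be set against each other in the same line. Limma called 2.17% of 4001 genes and none of the 6, whose differences (inhibitor minus IL-6) lay between -0.16 ± 0.13 for RELB and 0.29 ± 0.22 for NFKB1.

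**Figure D3:**
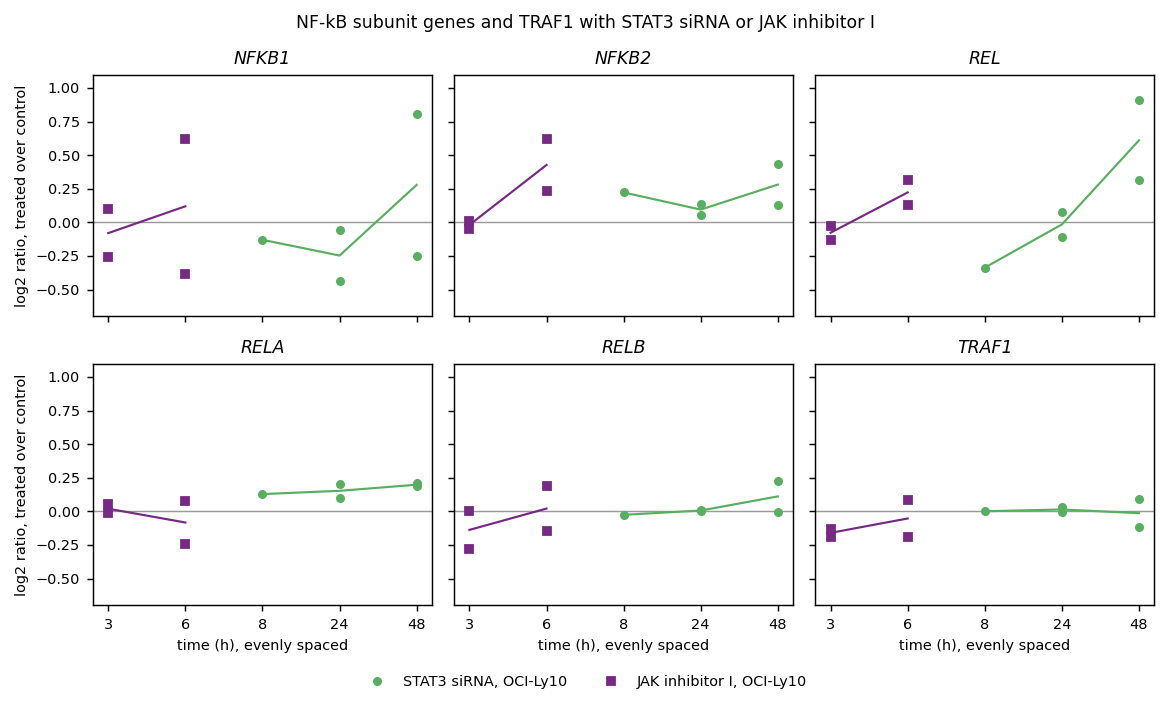
Log2 ratios (vertical axis) by time in h (horizontal axis, evenly spaced) for the 6 genes in OCI-Ly10 with STAT3 siRNA over no siRNA (circles) or JAK inhibitor I over untreated (squares). Points are single arrays and lines join the means of each time; the 2 arrays of REL at 48 h of siRNA (0.31 and 0.91) and of NFKB2 at 6 h of inhibitor (0.62 and 0.23) lay above the earlier ones.

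Set side by side over the 6 experiments, the genes had different orders. From low to high, TRAF1 had window means of -0.43 (super-repressor, OCI-Ly3), -0.11 (inhibitor), -0.09 (super-repressor, OCI-Ly10), -0.04 (IL-10), 3e-04 (siRNA) and 0.06 (IL-6). The step between its lowest and the next, 0.32 ± 0.08, passed (limma adjusted p = 0.026, in a contrast that called 6.54% of genes). The 2 means do not rest on the same probes. The inhibitor arrays had values for 3 or 4 of the 5 TRAF1 probes, and the super-repressor arrays in OCI-Ly3 for all 5. The 3 probes tested with the inhibitor ranged from -0.34 to 0.02. RELB had -0.38 (super-repressor, OCI-Ly3), -0.17 (super-repressor, OCI-Ly10), -0.06 (inhibitor), 0.06 (siRNA), 0.15 (IL-6) and 0.38 (IL-10). Its widest step, between IL-6 and IL-10, was 0.23 ± 0.10 (adjusted p = 0.111). NFKB2 had -0.29 (super-repressor, OCI-Ly3), -0.12 (super-repressor, OCI-Ly10), 0.04 (IL-6), 0.07 (IL-10), 0.19 (siRNA) and 0.20 (inhibitor). TRAF1, RELB and NFKB2 thus had their lowest mean in the same experiment.

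REL had -0.34 (IL-10), -0.13 (super-repressor, OCI-Ly10), -0.08 (super-repressor, OCI-Ly3), 2e-04 (IL-6), 0.07 (inhibitor) and 0.30 (siRNA). NFKB1 had -0.48 (super-repressor, OCI-Ly10), -0.40 (IL-10), -0.39 (IL-6), -0.36 (super-repressor, OCI-Ly3), 0.02 (siRNA) and 0.02 (inhibitor). RELA had the narrowest range, -0.03 (inhibitor), 0.01 (super-repressor, OCI-Ly10), 0.05 (IL-6), 0.11 (IL-10), 0.17 (super-repressor, OCI-Ly3) and 0.18 (siRNA). Its 2 probes disagreed with IL-10 (0.51 and -0.30) and the siRNA (0.38 and -0.03), so this range describes their mean and neither probe. With the super-repressor in OCI-Ly3 only 1 RELA probe could be tested, so the RELA means do not rest on the same probes. Of 30 pairs of neighbours in these orders only the lowest step of TRAF1 passed, and no difference was shown between the other neighbours. The lowest and highest mean differed by 0.76 for RELB, 0.64 for REL, 0.50 for NFKB2 and 0.49 for TRAF1. Their limma adjusted p-values were 1.26e-05, 0.0027, 0.00242 and 0.000377, in contrasts that called 20.8%, 12.6%, 6.54% and 18.1% of genes. For NFKB1 (0.50 ± 0.24) and RELA (0.21 ± 0.11) the ends did not pass. Those ends were picked by the values tested. The windows cover different times, and each order was read from the same values. Of 156 single time point means of the 6 genes 9 passed, 3 of them at 6 h of the super-repressor in OCI-Ly3, where 2.09% of genes were called, and 3 at 96 h of IL-10, where 14.7% were. The 96 h time had 1 array, whose spread was taken from the other times, and its 3 calls were lost with arrays scaled to equal spread.

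**Figure D4:**
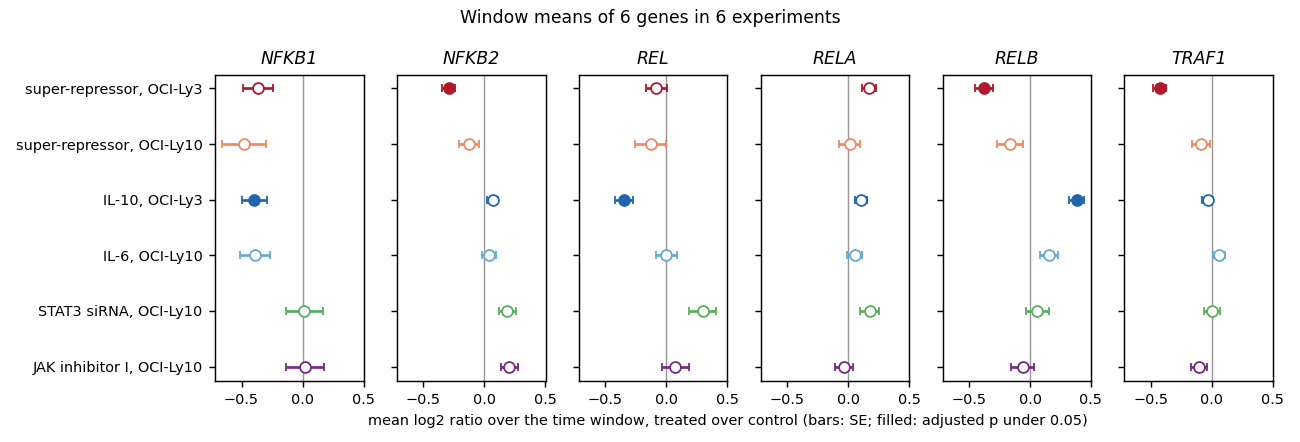
Mean log2 ratio of treated over control over the time window (horizontal axis) for each gene (panels) and experiment (rows), with bars of 1 SE and filled points at a limma adjusted p under 0.05. TRAF1, RELB and NFKB2 were called lower with the super-repressor in OCI-Ly3, and RELB higher and REL and NFKB1 lower with IL-10.

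A dye bias of a single gene is not removed where dyes were never swapped, and NFKB1 lay below 0 on 34 of 40 arrays and RELA above 0 on 30 of 40, across unlike treatments. Each window was therefore also set against the mean of the other 5, which removes a bias common to all. For the super-repressor in OCI-Ly3 TRAF1 (-0.39 ± 0.06, limma adjusted p = 0.000585), RELB (-0.46 ± 0.08, adjusted p = 0.00289) and NFKB2 (-0.37 ± 0.06, adjusted p = 0.0019) passed again, where 13.7% of 3517 genes were called. For IL-10 RELB (0.46 ± 0.07, adjusted p = 0.00011) and REL (-0.38 ± 0.09, adjusted p = 0.00404) passed again, where 21.8% were called, but NFKB1 did not (-0.16 ± 0.12, adjusted p = 0.414). NFKB1 passed in none of the 6 contrasts of this kind. The super-repressor in OCI-Ly10, the siRNA and the inhibitor called none of the 6 genes in it, where 0.284%, 2.7% and 3.44% of genes were called. For IL-6 TRAF1 was higher than the mean of the others by 0.19 ± 0.06 (adjusted p = 0.0457, where 8.79% were called), a mean that includes its fall in OCI-Ly3. That call was lost with the array run as a random block (adjusted p = 0.201) and with the probes' median (adjusted p = 0.078). The contrasts share arrays and are not independent of one another.

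Single probes show how far each gene's value rests on 1 spot. For the super-repressor in OCI-Ly3 5 of 5 TRAF1 probes lay below 0 and 4 passed (-0.61 to -0.12), 2 of 2 tested RELB probes passed (-0.47 and -0.40), and of 6 tested NFKB2 probes 5 lay below 0 and 2 passed (-0.56 to 0.02), where 14.1% of 13287 probes were called. With IL-10 3 of 3 RELB probes passed (0.25 to 0.48), 4 of 4 REL probes (-0.39 to -0.32) and 2 of 3 NFKB1 probes (-0.76 to -0.18), where 33% of 13071 probes were called. The probes of these called genes thus pointed the same way, apart from 1 of NFKB2. The 2 RELA probes with IL-10 were called in opposite directions, -0.30 ± 0.07 and 0.51 ± 0.06, so their mean of 0.11 describes neither. In OCI-Ly3 with the super-repressor only 1 RELA probe had enough values to test (0.12 ± 0.08). In OCI-Ly10 with the super-repressor 1 of 7 NFKB2 probes passed (-0.70) and 3 lay above 0, where 0.742% of 14289 probes were called. With the siRNA 1 REL probe (0.49 ± 0.14, adjusted p = 0.0474) and 1 RELA probe (0.38 ± 0.08, adjusted p = 0.0199) were called higher, where 4.14% of 13030 probes were called. All 4 REL probes lay above 0 there, while the other RELA probe lay at -0.03 ± 0.10. With the inhibitor 1 NFKB1 probe was called lower (-0.38 ± 0.10, adjusted p = 0.0357), where 3.51% of 13915 were called. The other 2 NFKB1 probes lay above 0 there (0.14 ± 0.15 and 0.30 ± 0.36). With IL-6 only 2 of 7 NFKB2 probes and 3 of 5 TRAF1 probes could be tested. The siRNA and the inhibitor likewise allowed a test of only 3 of 5 TRAF1 probes.

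**Figure D5:**
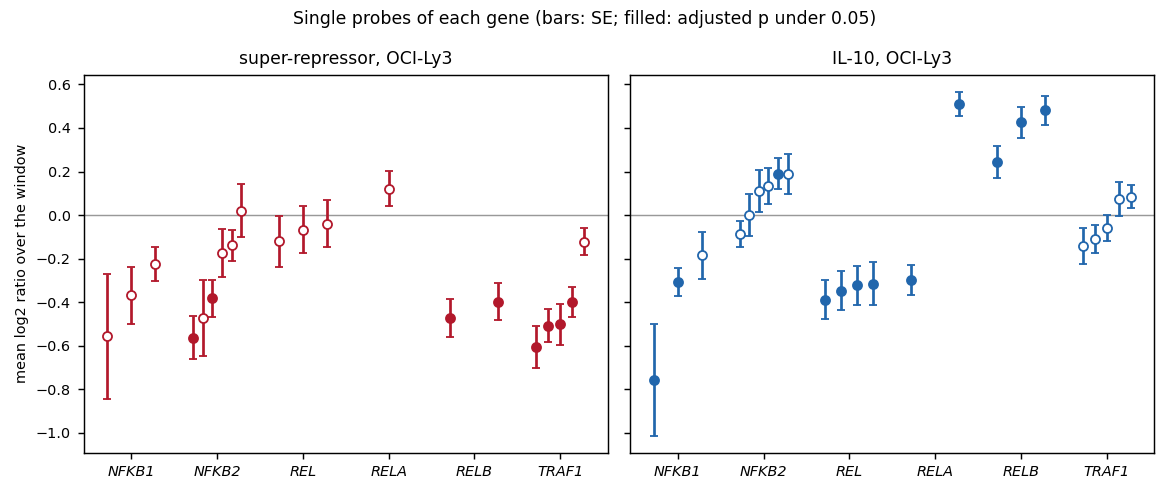
Mean log2 ratio over the time window (vertical axis) of each tested probe of the 6 genes (horizontal axis), for the super-repressor in OCI-Ly3 (left) and IL-10 in OCI-Ly3 (right), with bars of 1 SE and filled points at a limma adjusted p under 0.05. All 5 TRAF1 probes lay below 0 at left, and the 2 RELA probes lay at -0.30 and 0.51 at right.

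Likeness of pattern was measured as Pearson's r over the 26 means of experiment and time, which share arrays and lines, against 3998 other genes. Among the 6 genes TRAF1 was most like RELB (r = 0.67) and NFKB2 (r = 0.67), and NFKB2 and RELB had r = 0.56. NFKB1 had r = 0.55 with NFKB2 and 0.47 with REL, whereas REL and RELB had r = -0.32 and RELA at most 0.11 with any other. RELB was most like KIAA0753 (r = 0.88), NFKBIA (0.86), LINC00926 (0.84), MIR155HG, the host gene of a microRNA (0.82), and the kinase gene SGK1 (0.80). TRAF1 was most like NFKBIA (0.78), the costimulatory ligand gene CD80 (0.77), INPP4A (0.76), the adhesion gene ICAM1 (0.75) and FCF1 (0.74). NFKB2 was most like IER5 (0.79), TNFAIP3 (0.79), NFKBIA (0.76), the chemokine receptor gene CXCR6 (0.76) and VPS41 (0.72). By Pearson's r NFKBIA was thus among the 5 nearest genes of TRAF1, RELB and NFKB2, and by Spearman's rho among those of RELB but not of TRAF1 or NFKB2.

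REL was most like IRF8, a transcription factor of B and myeloid cells (0.82), HRAS (0.82), RPN1 (0.80), the cell cycle kinase gene CDK6 (0.78) and TNFRSF13C (0.78). NFKB1 was most like the sulfate transporter gene SLC26A2 (0.83), MIOS (0.82), the kinase gene PIM1 (0.82), the lymphoid transcription factor gene IKZF1 (0.81) and NUP50 (0.81). RELA was most like DYNC1LI1 (0.71), the DNA repair gene PARP1 (0.70), TNFRSF6B (0.68), the interferon-induced gene MX1 (0.67) and CYP51A1 (0.66), the lowest values of the 6 genes. The RELA pattern is the mean of 2 probes that moved in opposite directions with IL-10. Ranked by Spearman's rho, 13 of these 30 neighbours remained among the nearest 5, and 0 of the 5 of TRAF1.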

How the data were processed

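The authors deposited log ratios of Cy5 over Cy3 per probe, read here as log2; the base is not stated, and values ran from -7.868 to 5.81. Per the labels' protocols, Trizol RNA was copied from an oligo-dT primer; for background correction, spot filter and normalization, the steps were not given in the sources used here. The 40 arrays had values for 8862 to 14947 of 15246 probes (12.6% of cells blank) and medians of -0.031 to 0.011. Arrays were median-centred and the 10169 probes with 1 symbol averaged per gene (5073 had no symbol and 4 several); their number limits the precision.

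The model (limma 3.58.1, R 4.3.3) had 26 means, 1 for each time of each experiment. Window averages were tested against 0, and p-values were adjusted by Benjamini-Hochberg over all genes tested (threshold 0.05). A gene was tested with values on 75% of a window's arrays and at every time. A time with 1 array takes its spread from the others. If arrays shared control RNA, which the labels do not say, the test leaves out the spread of that RNA. The labels do not call replicates separate cultures, and the p-values reflect the spread between these samples only, which may be technical.

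The members, lists, windows and tests were chosen with earlier results of these data known. Named were the 6 genes, the 5 genes most like each (at least 24 means), and every called gene of the pathway and marker lists. Array identifiers fell into 12 runs (gaps above 50), used as a random block (consensus correlation 0.2687). Differences between replicates correlated across times at 0.376 to 0.577 for IL-10 and 0.193 to 0.269 for IL-6, which pairs them by their numbers, but at -0.319 to 0.32 in OCI-Ly3 with the super-repressor, which does not. The STAT3 siRNA and the inhibitor had 1 such correlation each (0.299 and 0.203). The fits were tested on simulated data. Probe names come from the platform's annotation and promoters from RefSeq.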

Additional observations from a re-analysis of the deposited data

Results flagged for a closer look

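Of the results above, 2 concern a response that differed between early and late arrays of the super-repressor in OCI-Ly3, by a limma contrast of 4 and 6 h minus 1 to 2 h. RELB differed by -0.67 ± 0.14 (adjusted p = 0.0211) and TRAF1 by -0.49 ± 0.09 (adjusted p = 0.0142). With the run as a random block the adjusted p-values were 0.00502 and 0.00219, and with arrays scaled to equal spread RELB was no longer called (-0.65, adjusted p = 0.0619).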

How the results depend on the processing

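The calls of TRAF1, RELB and NFKB2 with the super-repressor in OCI-Ly3 and of RELB and REL with IL-10 held in every alternative run, including the run as a random block (adjusted p = 0.000911, 0.0489 and 0.0427, and 0.0018 and 0.00775). NFKB1 kept its IL-10 call under that block, at an adjusted p of 0.0401. For the super-repressor in OCI-Ly3 5 of the 6 genes were called with the replicate block (NFKB1 and RELA added, adjusted p = 0.0295 and 0.0341), where 1105 of 4390 genes were called, against 616. In that experiment differences between replicates correlated across times at only -0.319 to 0.32. NFKB1 was also called there without replicate 1 of 3 h (adjusted p = 0.0436). With IL-6, 1 gene, NFKB1, was called with scaled arrays, with the experiment alone, with the replicate block and with the probes' median (adjusted p = 0.0138, 0.0396, 0.0399 and 0.0267). For the super-repressor in OCI-Ly10 1 gene was called with scaled arrays (NFKB1). For the siRNA 1 was called with the replicate block (REL, adjusted p = 0.0379) and 1 over all time points (NFKB2, adjusted p = 0.0471). With IL-10, late minus early, 1 was called with the probes' median, and with the super-repressor, late minus early, 1 (TRAF1) with scaled arrays. Against the other 5, 0 were called for IL-6 with the run as a block or the probes' median. Scaled arrays left 4 of 9 single time point calls (NFKB2, RELB and TRAF1 at 6 h of the super-repressor in OCI-Ly3 and NFKB2 at 6 h of the inhibitor), and Spearman's rho 13 of 30 neighbours. The replicate block changed no other call of the 6 genes. Leaving out 1 array at a time gave counts of 3 to 4 (super-repressor, OCI-Ly3), 0 to 0 (OCI-Ly10), 2 to 4 (IL-10), 0 to 0 (IL-6 and siRNA) and 0 to 1 (inhibitor, with NFKB2 called at 0.30 and adjusted p = 0.0488 without replicate 2 of 6 h and at 0.11 and adjusted p = 0.495 without replicate 1). REL with the siRNA ranged from 0.15 to 0.45 and was never called.

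Some values that were not called changed sign. REL with IL-6 was -0.0036 with scaled arrays, -0.0029 without further centring, -0.0045 with the run as a block and -0.0163 with probes measured on 75% of arrays. For the siRNA NFKB1 was -0.0554 with scaled arrays, -0.2011 with the probes' median and -0.0326 over all time points, and TRAF1 was -9e-04 with scaled arrays and -8e-04 without further centring. RELB was 0.0033 for the inhibitor with probes measured on 75% of arrays, and REL with the super-repressor in OCI-Ly3 was 0.0098 without both 2 h arrays. The difference of REL between the lines was 0.0062 with scaled arrays and 0.0757 with the probes' median, that of TRAF1 with IL-10, late minus early, 0.0014 with scaled arrays, and that of NFKB2 with IL-6, late minus early, 0.034 with the probes' median. Against the other 5, TRAF1 was -0.0264 (super-repressor, OCI-Ly10) and NFKB1 0.0064 (IL-10) with scaled arrays, and TRAF1 0.0404 (inhibitor) with the probes' median. Leaving out 1 array at a time, RELA ranged from -0.032 to 0.066 (super-repressor, OCI-Ly10), REL from -0.0334 to 0.0338 (IL-6), NFKB1 from -0.2495 to 0.2814 and TRAF1 from -0.0518 to 0.0524 (siRNA), and NFKB1 from -0.2313 to 0.2711, RELA from -0.1131 to 0.0499 and RELB from -0.1437 to 0.0265 (inhibitor). The cause was not tested.

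Counts over all genes moved more. With the run as a block 103, 5, 1032, 32, 48 and 77 genes were called in the 6 experiments, against 616, 24, 1548, 150, 144 and 146. Leaving out 1 array gave 269 to 957, 1 to 17, 1161 to 1569, 93 to 147, 21 to 106 and 44 to 160. With the experiment fitted alone 368, 1031, 71, 0 and 12 genes were called (OCI-Ly10 with the super-repressor left out), and over all time points 643 for the siRNA. The share of higher calls for the super-repressor in OCI-Ly3 was 51.6% with the experiment alone and 53.6% with the replicate block, against 65.3%. Scaled arrays gave 238 for OCI-Ly10 (52.1% higher, against 41.7%) and 455 for IL-6 (61.8% higher, against 76.7%). The super-repressor in OCI-Ly10 had no replicates, so it could not be fitted alone or with a replicate block.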
